A study of Mus musculus with 46 samples.

Results

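The genes described here are 44 genes of DNA replication and mitosis, named as a list and followed in 46 bulk tumours of mouse models of synovial sarcoma, 1 sequenced library per tumour. Of the list, 18 genes act in S phase or in its preparation (the replication genes) and 26 act from G2 to cytokinesis (the mitotic genes). The read counts covered 56980 genes in hSS2 and 56941 in hSS1, and all 44 members were present in both and passed the filter on low counts in every fit. The tumours were raised in mice that carry a human fusion gene, SS18::SSX2 in the hSS2 background or SS18::SSX1, expressed from Rosa26, in the hSS1 background. In every group, controls included, the fusion was switched on by injecting the recombinase protein TATCre into a limb at 8 days of age. The floxed groups were homozygous for alleles of Pbrm1, Arid1a or Arid1b that the same injection disrupts, so that loss occurred only in cells that took up the protein and could differ from cell to cell. In hSS2 there were 13 control tumours and 8 tumours each of the genotypes Arid1a-fl, Arid1b-fl and Pbrm1-fl. In hSS1 there were 5 control tumours and 4 of the genotype Pbrm1-fl. The labels name no floxed allele for the control tumours, and they give no age for single tumours. The methods put the mice at 2 to 6 months of age and name a mixed strain, CB57Bl/6-svJ. Each tumour came from its own mouse, and p-values measure the spread between such tumours.

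Cells divide in a fixed order that these genes follow. In G1 the proteins Cdc6 and Cdt1 load the MCM2 to MCM7 helicase onto replication origins, and cyclin E with Cdk2 and the E2F factors then turn on the genes of S phase, among them the sliding clamp Pcna and the nucleotide enzymes Rrm2 and Tyms. Later, Mybl2 and Foxm1 turn on the genes of G2 and M, which encode cyclins A and B, the kinases Cdk1, Plk1, Aurka and Aurkb, the spindle checkpoint and the ubiquitin ligase that ends mitosis. In a bulk tumour the level of such genes follows both the share of cells in cycle and the RNA of each cycling cell, and these cannot be told apart. Pbrm1 belongs to the PBAF chromatin remodelling complex, whereas canonical BAF contains either Arid1a or Arid1b. The comparisons addressed what the loss of each subunit changes in tumours driven by the fusion.

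The promoters of the replication and mitotic genes differed in short motifs that were not used to choose them. Promoter windows from RefSeq (GRCm38.p6, 250 bases before to 50 after the start) were at hand for 36 of the 44 members, 15 replication and 21 mitotic genes. An E2F-type motif (the letters TTCCCGC, the letters TTCGCGC, the form TTGGCGC or the form TTGCCGC, either strand) was present in 10 of 15 replication windows (66.7%), in 3 of 21 mitotic windows (14.3%) and in 9.69% of all 27025 windows. The CHR-type motif (the letters TTTGAA or the form TTTAAA, either strand), an element known from genes of G2 and M, was present in 18 of 21 mitotic windows (85.7%), in 5 of 15 replication windows (33.3%) and in 27.8% of all windows. A CCAAT box, which can overlap an E2F-type match in the letters TTGG, was present in 17 of 21 mitotic, 10 of 15 replication and 37.9% of all windows. A match describes these letters only and is not a measured binding site. The windows of 4 members are shown from 250 bases before the start to the base before it, 5′ to 3′, with E2F-type and CHR-type matches in capitals. Mcm4, which also passed the test after Arid1a disruption, was among the members without a window. Ccne1 passed the test after Arid1a disruption, Mcm6 holds the most E2F-type matches, and Ccnb1 and Cenpf were among the members with the lowest p after Pbrm1 disruption in hSS1.
Ccne1 (chr7:38107491-38107740, minus strand): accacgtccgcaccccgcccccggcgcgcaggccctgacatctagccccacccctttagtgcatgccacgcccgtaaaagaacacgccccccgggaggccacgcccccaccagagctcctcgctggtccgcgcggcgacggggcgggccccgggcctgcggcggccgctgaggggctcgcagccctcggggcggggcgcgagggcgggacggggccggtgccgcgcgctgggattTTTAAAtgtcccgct
Mcm6 (chr1:128359706-128359955, minus strand): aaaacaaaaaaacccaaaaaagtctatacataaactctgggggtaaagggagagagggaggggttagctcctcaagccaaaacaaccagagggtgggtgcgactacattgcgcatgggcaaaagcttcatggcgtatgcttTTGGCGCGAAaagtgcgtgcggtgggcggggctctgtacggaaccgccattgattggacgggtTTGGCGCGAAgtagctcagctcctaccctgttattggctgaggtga
Ccnb1 (chr13:100786487-100786736, minus strand): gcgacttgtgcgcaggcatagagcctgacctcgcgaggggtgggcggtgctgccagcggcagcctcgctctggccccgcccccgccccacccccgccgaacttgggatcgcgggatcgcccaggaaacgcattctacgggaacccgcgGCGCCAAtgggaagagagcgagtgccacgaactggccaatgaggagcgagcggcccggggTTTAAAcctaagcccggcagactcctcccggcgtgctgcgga
Cenpf (chr1:189688087-189688336, minus strand): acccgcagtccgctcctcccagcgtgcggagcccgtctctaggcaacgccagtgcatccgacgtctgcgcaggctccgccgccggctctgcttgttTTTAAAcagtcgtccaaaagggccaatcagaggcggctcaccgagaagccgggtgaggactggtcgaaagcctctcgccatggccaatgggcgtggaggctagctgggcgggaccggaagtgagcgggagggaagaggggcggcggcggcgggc
The Ccne1 stretch holds 1 CHR-type match and no E2F-type match. In Mcm6 overlapping E2F-type pairs lie from -109 to -100 and from -46 to -37, counted from the RefSeq start as 0. A further match at 24 to 30 lies beyond the stretch shown. Ccnb1 holds an E2F-type match at -102 to -96 and a CHR-type match at -42 to -37. Cenpf holds a CHR-type match at -154 to -149 and another at 2 to 7, beyond the stretch shown. The gene models used for exon lengths start Ccne1 at 38107534 and Ccnb1 at 100786570, within the stretches shown. By those models the CHR-type matches of Ccne1 and Ccnb1 lie inside the annotated gene.

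**Figure D1:**
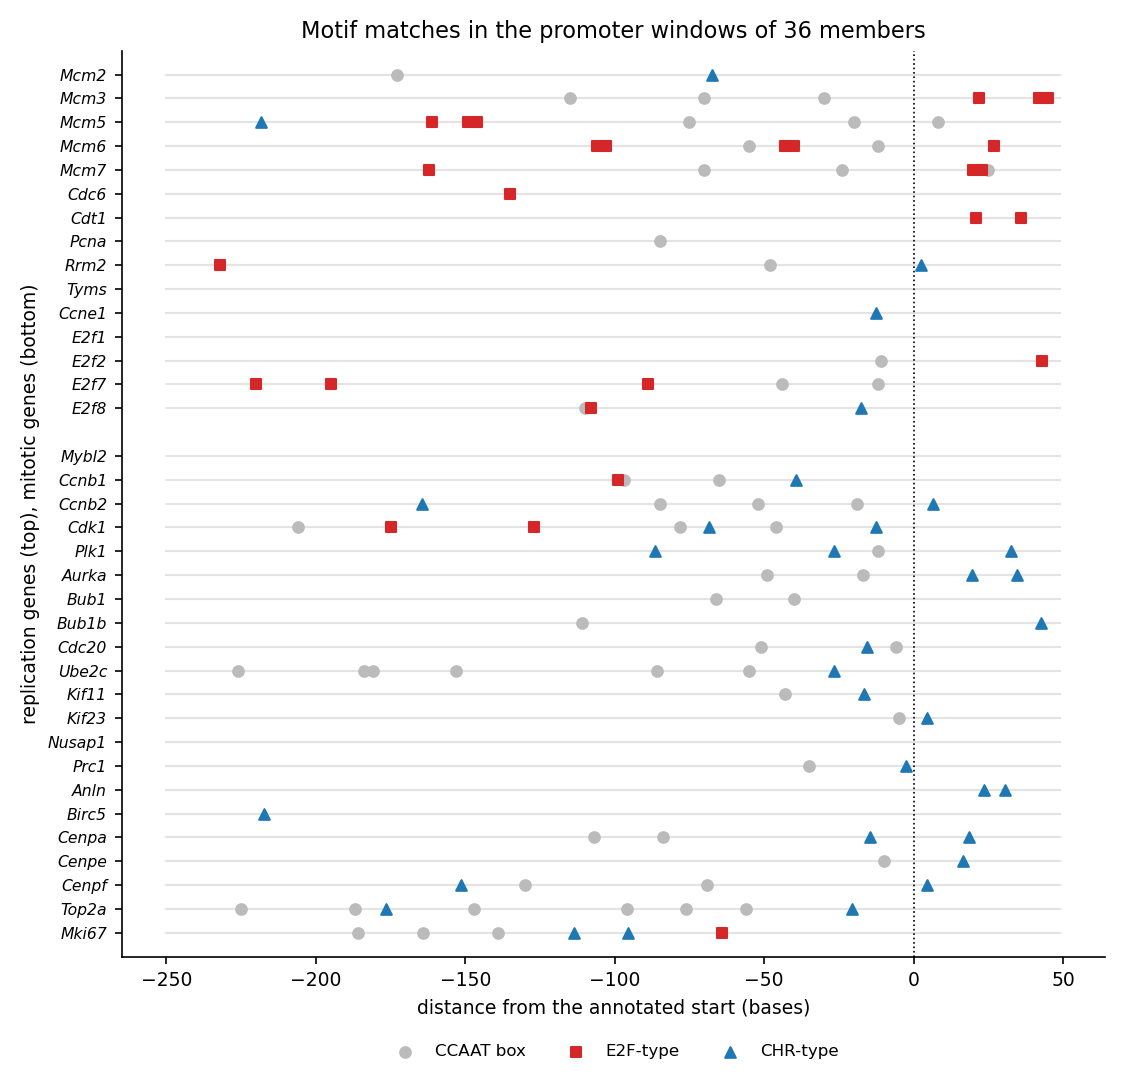
Positions of E2F-type (squares), CHR-type (triangles) and CCAAT (circles) matches in the promoter windows of 36 members; the x axis is the distance in bases from the annotated start and each row is a gene. Of the 15 replication windows 10 hold an E2F-type match, and of the 21 mitotic windows 18 hold a CHR-type match, many of them near the start.

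Libraries held 10137668 to 21294657 counts. Levels are given in CPM, in which counts are scaled by TMM to a common library total within each background, and the backgrounds were scaled separately. The targeted gene was lower in every floxed group, with medians of 97.1 against 253 CPM for Pbrm1 in hSS2, 247 against 505 CPM for Arid1a, 186 against 323 CPM for Arid1b and 218 against 338 CPM for Pbrm1 in hSS1. The library labelled hSS2 control replicate 9 went against its label, with 238 CPM of Arid1a where the other 12 controls had 422 CPM or more, and the main values that rest on it are also given without it. Arid1b was less separate, at 111 to 347 CPM in the 8 Arid1b-fl and 222 to 686 CPM in the 13 control tumours. The library labelled Arid1b-fl replicate 4, at 347 CPM, lay above the control median and so went against its label, and replicates 2 and 7 (291 and 232 CPM) lay within the control range. The labels number the mice, and each floxed hSS2 group came from a single range of these numbers (Arid1a-fl below 1000, Arid1b-fl from 1000 to below 2000, Pbrm1-fl from 2000 up). Range and floxed gene cannot be told apart except through the control tumours, which span the ranges. Whether the numbers follow date or breeding is not in the labels. All 8 markers of synovial sarcoma had a median of at least 1 CPM in each group. Of 10 skeletal muscle markers, 10 had such a median in each hSS2 group and 4 in each hSS1 group, and their summed level ran from 5.56 to 51529 CPM in hSS2 and from 8.16 to 652 CPM in hSS1 tumours. Of the members, 9 share bases with another annotated gene on the same strand and 16 with one on the opposite strand (Top2a, Kif11, Mcm7 and Nusap1 with both), and their reads may be split by the counting.

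The members had very different levels per kilobase of annotated exon, but most were lowest, and most highest, in the same tumour of a group. In hSS2 control tumours the highest median per kilobase of exon was 17.5 CPM for Pcna and the lowest 1.41 CPM for E2f8. Among the licensing genes Mcm4 was highest (16.3 CPM per kilobase) and Cdc6 lowest (1.54), and among the kinases and cyclins of mitosis Ccnb2 was highest (8.21) and Cdk1 lowest (2.53). The length used is that of all annotated exons of a gene merged, 1531 bases for Ccnb2 and 4934 for Cdk1. Before this division their medians were nearly equal, 12.6 and 12.5 CPM, so their order here rests on the length. Mki67, the Ki-67 antigen used to count cycling cells, stood at 16.9 CPM per kilobase and Top2a, the topoisomerase that untangles sister chromatids, at 10.1. In hSS2 control tumours Mki67 ranged from 48.5 CPM through a median of 170 to 728 CPM, and Top2a from 13.9 through 90.7 to 314 CPM. These are spans of over 10 times within 1 genotype, with the lowest value of both genes in replicate 12 and the highest in replicate 6. E2f1 was instead highest in replicate 8 (27.4 CPM) and E2f7 in replicate 4 (40.6 CPM), where Mki67 stood at 117 and 170 CPM. Replicate 12 was the lowest of the 13 control tumours in 37 of the 44 members and replicate 6 the highest in 28.

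The same held in the other groups, each of which had 1 tumour that was lowest and 1 that was highest in most members. In hSS2 Pbrm1-fl tumours replicate 1 was lowest in 41 members and replicate 8 highest in 40. In hSS2 Arid1a-fl tumours replicate 6 was lowest in 42 and replicate 1 highest in 40, and in hSS2 Arid1b-fl tumours replicate 7 was lowest in 34 and replicate 5 highest in 25. In hSS1 control tumours replicate 2 was lowest in 43 and replicate 4 highest in 31, and in hSS1 Pbrm1-fl tumours replicate 1 was lowest in 36 and replicate 3 highest in 30. The SD of log2 CPM over the 13 hSS2 control tumours had a median of 1.10 over the members (1.21 over mitotic and 0.79 over replication genes) and of 0.48 over all 20083 genes tested. Mcm4 had the smallest SD (0.46) and Top2a the largest (1.32). Without control replicate 9 the median SD was 1.12 over the members and 0.48 over all genes.

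Across the 13 hSS2 control tumours log2 CPM of Mki67 correlated with that of Top2a (Pearson r 0.954, Spearman rho 0.967), with the replication genes Mcm5 (r 0.907, rho 0.951) and Pcna (r 0.949, rho 0.956). Each r had a permutation p of 1e-05 (adjusted 1.3e-05 over the 4 relations), the smallest that 100000 resamples can give. The adjusted permutation p of rho was 2e-05 for Top2a and Mcm5 and 2.7e-05 for Pcna. Without replicates 2 and 6, the tumours farthest from the median of Mki67, r was 0.931, 0.867 and 0.935. The same tumours gave r -0.468 (permutation p 0.11, adjusted 0.11) and rho -0.302 (adjusted p 0.32) for Mki67 against the summed muscle markers, and r -0.649 without those tumours. Without control replicate 9, r with Mki67 was 0.961 for Top2a, 0.930 for Mcm5, 0.981 for Pcna and -0.372 for the muscle markers. Muscle markers were highest where the members were lowest in hSS2 Pbrm1-fl (16662 CPM in replicate 1, 10.8 CPM in replicate 8) and in hSS1 control tumours (652 CPM in replicate 2, 9.29 CPM in replicate 4). In hSS2 control tumours replicates 12 and 6 had 1776 and 9201 CPM, in the opposite order. In the remaining groups the tumour lowest in most members did not hold the most muscle markers. That tumour had 2948 CPM in hSS2 Arid1a-fl (highest 11646), 6731 CPM in hSS2 Arid1b-fl (highest 48496) and 13.9 CPM in hSS1 Pbrm1-fl (highest 95.4).

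**Figure D2:**
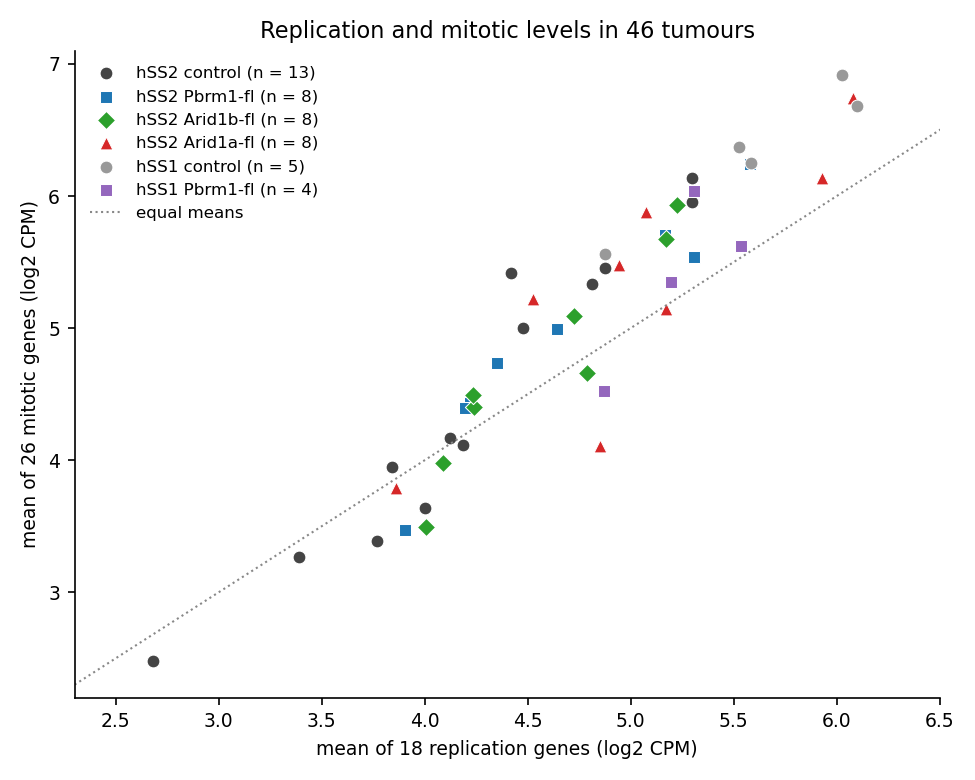
Mean log2 CPM of the 26 mitotic genes (y) against that of the 18 replication genes (x) in each of the 46 tumours, coloured by group, with a dotted line of equal means; each background was scaled separately. Both means are lowest in hSS2 control replicate 12 (2.68 and 2.48) and near their highest in hSS1 control replicate 4 (6.03 and 6.92), and hSS2 Arid1a-fl replicate 7 (4.85 and 4.11) lies farthest below the line.

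Disruption of Arid1a in hSS2 went with a higher Mcm4 and Ccne1, the 2 members that passed the test. Mcm4, a subunit of the replicative helicase, ranged from 38.5 through a median of 58.6 to 101 CPM in 13 control tumours and from 54.3 through 116 to 219 CPM in 8 Arid1a-fl tumours. Of the 8 floxed tumours 7 lay above the control median and 4 above every control tumour. The log2 fold change was 0.91 (SE 0.22, edgeR quasi-likelihood test, Benjamini-Hochberg adjusted p 0.0272). Ccne1, cyclin E1, which drives entry into S phase, ranged from 0.792 through 3.77 to 8.08 CPM in control tumours and from 2.46 through 6.87 to 23.4 CPM in Arid1a-fl tumours. Of these, replicates 1 and 8 (19.8 and 23.4 CPM) stood well above the rest and replicates 3 and 6 (3.17 and 2.46 CPM) below the control median. Its log2 fold change was 1.24 (SE 0.36, edgeR adjusted p 0.0484).

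These were 2 of 44 members called, both replication genes and both higher, where 1.41% of all 20083 genes tested were called higher. None of the 26 mitotic genes passed the edgeR test, and 6 of them had an unadjusted p under 0.05, all with a positive log2 fold change. Of the 18 replication genes 15 had an unadjusted p under 0.05, also all positive, against 10.2% of all genes that were higher at that p. The median log2 fold change was nonetheless alike, 0.75 for replication and 0.73 for mitotic genes (all genes -0.04), and all 44 members were positive. Most members varied together from tumour to tumour, so counts of members, here and in the comparisons below, are not counts of independent observations. The mitotic genes had the larger spread within a group and larger standard errors. DESeq2 called 5 members, all higher and all replication genes (3.16% of all genes were called higher by that tool). These were Mcm4, Ccne1, Ccne2, Mcm3 and Gins2, listed after their values were seen.

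By role, the 8 licensing genes had log2 fold changes of 0.67 to 1.03 and each had an unadjusted p under 0.05. Mcm3 was farthest from 0 among them (1.03, SE 0.34, edgeR adjusted p 0.0736). The 4 genes of the fork and of nucleotide supply ran from 0.57 for Pcna to 0.98 for Rrm2, the ribonucleotide reductase subunit. Among the cyclins E and E2F factors the values ran from 0.35 for E2f7 to 1.24 for Ccne1, and Ccne2, the second cyclin E, had 0.92 (SE 0.27, edgeR adjusted p 0.0545). Among the mitotic genes Aurka, a kinase of the spindle poles, had the smallest p (0.95, SE 0.40, edgeR adjusted p 0.153), followed by Cdk1, the kinase that cyclins A and B activate (0.94, SE 0.44, edgeR adjusted p 0.193). Aurka had medians of 12.5 CPM in control and 20.7 CPM in Arid1a-fl tumours, and 6 of the 8 floxed tumours lay above the control median. Mki67 (0.45, SE 0.43, edgeR adjusted p 0.539) ran from 130 through 380 to 799 CPM in Arid1a-fl tumours, and Top2a (0.73, SE 0.44, edgeR adjusted p 0.314) from 56.9 through 175 to 462 CPM. Both overlapped widely with the control range given above.

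The groups overlapped in every member: none had all 8 Arid1a-fl tumours above every control tumour (0.00498% of all genes did) or even above the control median (4.81% of all genes did the latter). The call for both genes depended on single tumours. Leaving out 1 library at a time gave 0 to 6 called members. It gave 0 without Arid1a-fl replicate 1, 2, 7 or 8, 1 without Arid1a-fl replicate 4 or 5 or control replicate 1, 4, 5, 7, 8, 9, 11, 12 or 13, 4 without control replicate 2 and 6 without Arid1a-fl replicate 6. Mcm4 stayed past the threshold in 17 of these 21 fits and Ccne1 in 6, and without control replicate 9, whose Arid1a level goes against its label, Mcm4 (edgeR adjusted p 0.0355) was called and Ccne1 (0.0578) was not. Without that library 22 members had an unadjusted p under 0.05 after Arid1a disruption, with a median of 0.79 over the 44. Also without it, 0 members were called after Pbrm1 or Arid1b disruption in hSS2, as with it, with medians of 0.33 and 0.11. In the floxed tumour that was highest in most members, Arid1a-fl replicate 1, the summed erythroid markers stood at 3905 CPM, where the other 7 had 14.8 to 818 CPM. Without it the median was 0.50, and the part of these markers in the result was not otherwise tested. All Arid1a-fl mice were numbered under 1000, and against the 5 control tumours of that range 4 members were called higher (2.98% of all genes), with medians of 1.13 for replication and 1.10 for mitotic genes. These 5 control tumours include replicates 12 and 13, which had the lowest mean log2 CPM of the mitotic genes among hSS2 control tumours (2.48 and 3.26). Of the 5, 1 is replicate 9, which had the highest such mean among them (5.42). Against the other 4, a fit added after seeing the data, 6 members were called higher, all replication genes (2.47% of all genes), with medians of 1.22 for replication and 1.48 for mitotic genes. In that fit 40 members, 23 of them mitotic, had an unadjusted p under 0.05, where 25.7% of all genes had such a p. Control tumours numbered 2000 and over lay above those under 1000 by a median log2 difference of 0.67 over the members, positive in 44 of 44 and with 0 called by edgeR (1 at an unadjusted p under 0.05). Summed muscle markers had a median of 1513 CPM in Arid1a-fl and 3628 CPM in control tumours. With that level as a covariate the median of the 44 members was 0.60 and 1 member, Mcm4, was called; the part of these markers in the result was not otherwise tested.

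**Figure D3:**
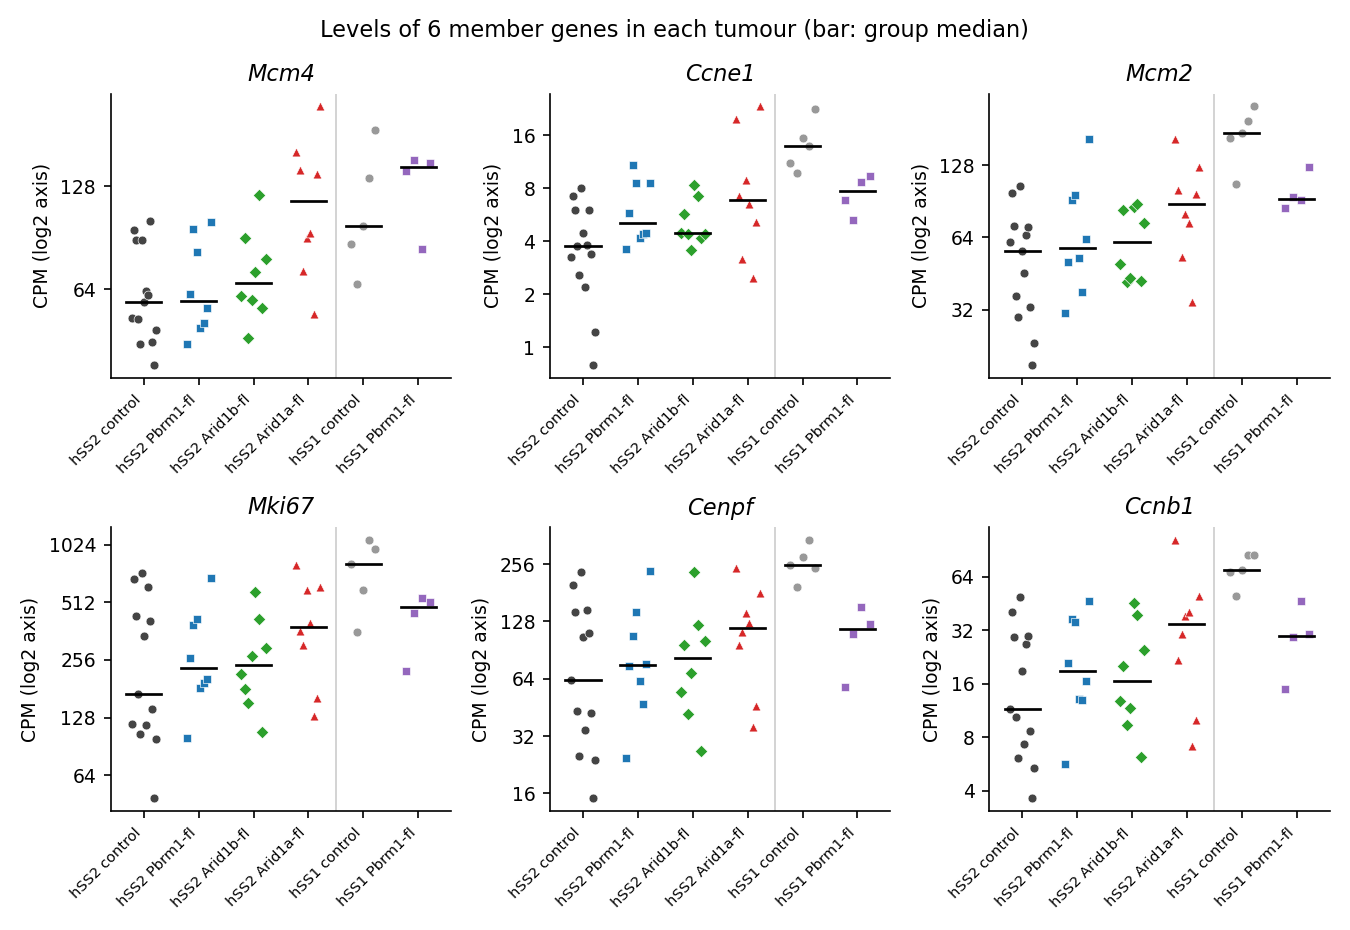
Level of 6 members in each of the 46 tumours, in CPM on a log2 axis, with the group median as a bar; the backgrounds were scaled separately. Mcm4 and Ccne1 have their highest hSS2 medians in Arid1a-fl tumours (116 and 6.87 CPM), and all 4 hSS1 Pbrm1-fl tumours lie below all 5 hSS1 control tumours for Ccne1, Cenpf and Ccnb1.

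Among the 4 hSS2 groups the Arid1a-fl tumours had the highest median of 42 of the 44 members and the control tumours the lowest of 36 (42 and 40 without control replicate 9). Set directly against the 8 Pbrm1-fl tumours, Arid1a-fl tumours had 1 member called, Mcm4 (log2 difference 0.84, SE 0.25, edgeR adjusted p 0.0225), where 5.5% of all genes were called higher. Mcm4 in Pbrm1-fl tumours ran from 44.3 through 59.2 to 101 CPM, and 7 of 8 Arid1a-fl tumours lay above that median. The call was lost without Arid1a-fl replicate 8 (0 called), while without Arid1a-fl replicate 6 there were 2. It was also lost when each group was set against control tumours of its own mouse number range (1.14, edgeR adjusted p 0.125, and 1.16, edgeR adjusted p 0.123, without control replicate 9). With control replicate 9 kept, the median difference over the members in that setting was larger, 1.06, with 44 of 44 positive and 0 called. In the main fit the median difference over the members was 0.42. The mitotic genes with the smallest p in the main fit were Aurka (0.72, edgeR adjusted p 0.326) and the checkpoint kinase Bub1 (0.65, edgeR adjusted p 0.447). Against the 8 Arid1b-fl tumours 0 of 44 members were called by edgeR and 0 by DESeq2 (0.0996% of all genes by edgeR), and 6 members, all replication genes, had an unadjusted p under 0.05 (12.5% of all genes). The smallest p there were those of Mcm4 (0.73, SE 0.25, edgeR adjusted p 0.227) and Tyms, thymidylate synthase (0.69, SE 0.28, edgeR adjusted p 0.323), and all 26 mitotic genes were positive with a median of 0.67. These contrasts share the Arid1a-fl tumours with each other and with the comparison above.

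Disruption of Arid1b in hSS2 gave no member called by edgeR or DESeq2 (0.0548% of all genes were called by edgeR), which does not show an absence of change. The median log2 fold change was 0.17 over the replication and 0.07 over the mitotic genes, and 1 member had an unadjusted p under 0.05 (6.22% of all genes). That member was E2f2, an activating E2F factor, with a log2 fold change of 1.07 (SE 0.39, edgeR adjusted p 0.697). E2f2 ran from 3.64 through 11.4 to 23.6 CPM in control tumours and from 10.5 through 12.8 to 117 CPM in Arid1b-fl tumours. Replicate 5 alone held 117 CPM and the next highest tumour 21.9 CPM, and without it the log2 fold change was 0.07 (edgeR adjusted p 0.999). Replicate 5 was the highest Arid1b-fl tumour in 25 members, with Mki67 at 579 CPM beside 420 CPM in the next tumour. The same library had 47460 CPM of summed erythroid markers, with 6 of 6 at 1 CPM or more, where the other 7 Arid1b-fl tumours had 25.2 to 78.5 CPM and 4 or 5 of 6. It was also highest of the group in summed endothelial markers (984 CPM, others 107 to 510) and macrophage markers (925 CPM, others 65.1 to 540), and the part of these cells in its values was not tested. Without it the median over the 44 members was -0.11, and 0 had an unadjusted p under 0.05. Without replicate 4, whose Arid1b level goes against its label, the median was 0.14, and 0 members were called with 1 at that p. Without control replicate 9 the control median of E2f2 was 12.9 CPM, so that the Arid1b-fl median no longer lay above it. Mcm3 had 0.52 (SE 0.34, edgeR adjusted p 0.85), and Ube2c, an enzyme of the ligase that ends mitosis, 0.44 (SE 0.48, edgeR adjusted p 0.93). Mki67 had -0.15 (SE 0.44, edgeR adjusted p 0.992) and Top2a 0.08 (SE 0.45, edgeR adjusted p 0.993). With muscle markers as a covariate the median over the 44 members was -0.07, beside 0.09 without it.

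Disruption of Pbrm1 in hSS2 called none of the 44 members, by edgeR or DESeq2, in a comparison that called 7.35% of all genes. The log2 fold changes were small and mostly positive, 42 of 44, with a median of 0.38 for replication and 0.30 for mitotic genes (all genes -0.004). At an unadjusted p under 0.05 there was 1 member, where 22.4% of all genes had such a p. This was again E2f2, at 1.04 (SE 0.39, edgeR adjusted p 0.102), which ran from 13.4 through 21.4 to 47.8 CPM in Pbrm1-fl tumours. All 8 lay above the control median of 11.4 CPM and 4 above every control tumour. Rrm2 had 0.78 (SE 0.42, edgeR adjusted p 0.273), and Foxm1, the forkhead factor that turns on genes of G2 and M, 0.56 (SE 0.37, edgeR adjusted p 0.376). Mki67 (-0.02, SE 0.43, edgeR adjusted p 0.989) ran from 99.5 through 233 to 687 CPM and Top2a (0.44, SE 0.45, edgeR adjusted p 0.598) from 47.9 through 132 to 351 CPM. The positive median was smaller against the 4 controls that share its range of mouse numbers, where it was 0.03 over the 44 members with 26 positive, and 0.09 with muscle markers as a covariate (median 214 CPM in Pbrm1-fl and 3628 CPM in control tumours). In either setting 0 of the 44 members, E2f2 included, had an unadjusted p under 0.05. The largest log2 fold changes of any member were 0.71 and 0.76. The SE of the mitotic genes ran from 0.33 to 0.48.

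Disruption of Pbrm1 in hSS1 went with lower members, most of all mitotic genes, but no member passed the edgeR test in these 9 libraries. The mitotic genes had a median log2 fold change of -0.96, with 26 of 26 negative, and the replication genes a median of -0.34, with 17 of 18 negative (all genes 0.01). edgeR called 0 of 44 members and 0.00562% of all genes. At an unadjusted p under 0.05 there were 24 members, all lower, against 9.34% of all genes that were lower at that p. These were 20 of 26 mitotic and 4 of 18 replication genes. DESeq2 called 9 members, all lower (3.89% of all genes were called lower by that tool), 7 of them mitotic: Cenpf, Cenpa, Ccnb1, Bub1, Bub1b, Cdc20 and Ccna2, with the replication genes Mcm2 and Ccne1, listed after their values were seen. The count of calls thus differed between the tools, 0 against 9.

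Cenpf, a protein of the kinetochore and of the G2 nuclear matrix, had 254, 194, 280, 344 and 243 CPM in the 5 control tumours and 58, 110, 152 and 125 CPM in the 4 Pbrm1-fl tumours. The groups did not overlap, and its log2 fold change was -1.24 (SE 0.28, edgeR adjusted p 0.121, DESeq2 adjusted p 0.00349). Cenpa, the histone variant that marks the centromere, had 84.1, 50.2, 75.1, 109 and 89.4 CPM in control and 20.2, 36.8, 45.4 and 42.6 CPM in Pbrm1-fl tumours. Here too every floxed tumour lay below every control tumour (-1.17, SE 0.28, edgeR adjusted p 0.127, DESeq2 adjusted p 0.00883). Ccnb1, cyclin B1, had 68.4, 50.1, 69.5, 85.3 and 84.3 CPM in control and 15, 29.2, 46.6 and 30.5 CPM in Pbrm1-fl tumours. Its groups were also separate, by 46.6 against 50.1 CPM at the closest (-1.24, SE 0.31, edgeR adjusted p 0.132).

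The replication genes were less alike. Ccne1 was the fourth member whose groups did not overlap, with 11.2, 9.82, 15.5, 13.9 and 22.5 CPM in control and 6.84, 5.25, 8.67 and 9.35 CPM in Pbrm1-fl tumours (-0.95, SE 0.30, edgeR adjusted p 0.182). These were 4 of 44 members with separate groups, or 9.09%, and 3.54% of all genes had every floxed below every control tumour. Mcm2 had 167, 107, 174, 197 and 225 CPM in control and 84.7, 94.0, 92.0 and 126 CPM in Pbrm1-fl tumours (-0.81, SE 0.22, edgeR adjusted p 0.152). Its fellow helicase subunit Mcm4 had 86.7, 66.3, 97.7, 135 and 187 CPM in control and 142, 152, 83.6 and 149 CPM in Pbrm1-fl tumours, the 1 member with a positive value (0.20, SE 0.31, edgeR adjusted p 0.776). The difference between Mcm2 and Mcm4 was not tested. All 4 floxed tumours lay below the control median in 29 of the 44 members (65.9%) and in 20.3% of all genes tested. In the same tumours the E2F factors had -0.06 for E2f1, -0.47 for E2f2, -1.01 for E2f7 and -1.01 for E2f8, the last pair being the repressors among them.

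Mki67 had 814, 358, 593, 1082 and 964 CPM in hSS1 control and 225, 450, 539 and 513 CPM in Pbrm1-fl tumours, so that control replicate 2 lay within the floxed range (-0.82, SE 0.36, edgeR adjusted p 0.289). Top2a had 338, 189, 332, 471 and 413 CPM in control and 89.5, 166, 376 and 180 CPM in Pbrm1-fl tumours (-0.78, SE 0.41, edgeR adjusted p 0.357). Pbrm1-fl replicate 3 was above the control median there and was the highest floxed tumour in 30 members. That tumour also had the lowest Pbrm1 level of the group, 102 CPM where the other 3 had 209 CPM or more. The mean log2 CPM of the mitotic genes exceeded that of the replication genes by 0.58 to 0.89 in the 5 control tumours and by -0.34, 0.16, 0.73 and 0.09 in Pbrm1-fl replicates 1 to 4. Leaving out 1 library at a time moved the median over the 44 members between -1.11 and -0.66, kept 13 to 31 of them at an unadjusted p under 0.05 and called none. Against the 3 controls that share this range of mouse numbers the median was -1.04, and the 2 controls numbered 2000 and over included replicate 2, the lowest control tumour in 43 members. Summed muscle markers, 8.16 to 95.4 CPM in floxed and 8.69 to 652 CPM in control tumours, had medians of 14.1 and 13.7 CPM, and with them as a covariate the median was -0.95.

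**Figure D4:**
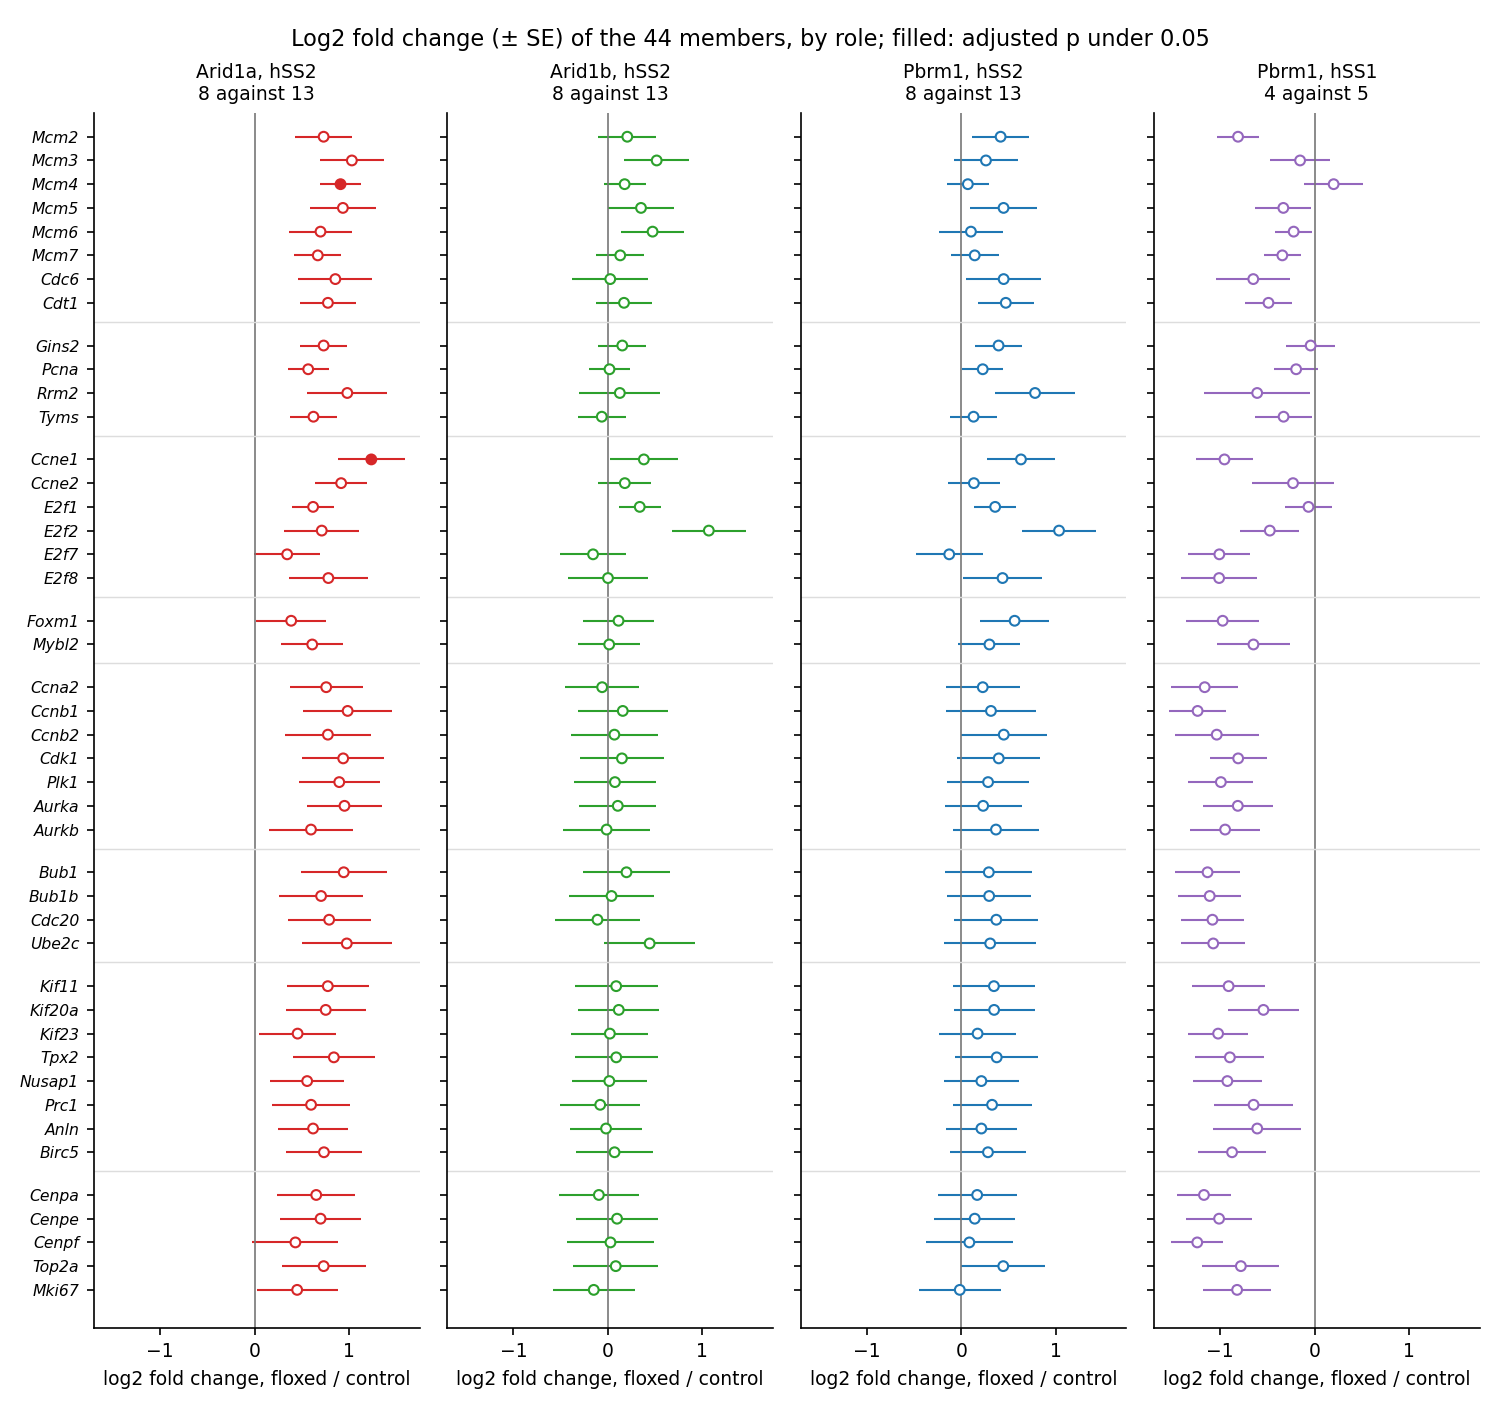
Log2 fold change of each of the 44 members (floxed over control, bars show SE) in 4 comparisons, with genes grouped by role from licensing at the top to centromere and chromosome genes at the bottom; filled points passed an adjusted p of 0.05 by edgeR. The 3 hSS2 comparisons share their 13 control tumours. All 44 points are positive after Arid1a disruption, with Mcm4 and Ccne1 filled, and 43 of 44 are negative after Pbrm1 disruption in hSS1, with none filled.

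The effect of Pbrm1 disruption was then compared between backgrounds, as the change in hSS1 minus that in hSS2 in 1 fit of 46 libraries. Of the 44 members 43 were negative in this difference, with a median of -1.28 over the mitotic and -0.65 over the replication genes (all genes 0.02). edgeR and DESeq2 called none, where edgeR called 2.86% of all genes, and 5 members had an unadjusted p under 0.05 (18.9% of all genes). These were Ccne1 (-1.60, SE 0.62, edgeR adjusted p 0.146), Mcm2 (-1.24, SE 0.52, edgeR adjusted p 0.178), Foxm1 (-1.55, SE 0.66, edgeR adjusted p 0.182), E2f2 (-1.52, SE 0.68, edgeR adjusted p 0.213) and Ccna2 (-1.40, SE 0.68, edgeR adjusted p 0.253). A difference between the backgrounds was therefore not shown for any single member, and the standard errors over the members were 0.38 to 0.83. Without hSS2 control replicate 9 the median was -1.21 and 0 members were called. With the 4 hSS2 control tumours numbered 2000 and over as the hSS2 reference, the median over the 44 members was -0.94 and 0 had an unadjusted p under 0.05. Loss of Pbrm1 was unequal, with medians of 97.1 against 253 CPM in hSS2 and 218 against 338 CPM in hSS1. Background and depth of Pbrm1 loss cannot be told apart in this comparison, and the part of that depth was not tested.

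Other genes of the same processes, taken from lists of 46 further replication and 50 further mitosis genes, were mostly of the same sign. After Arid1a disruption 46 of 46 further replication genes were positive with a median of 0.62. Of these, 29 had an unadjusted p under 0.05, where 10.2% of all genes were higher at that p. By edgeR 4 were called and by DESeq2 13, all higher, where 1.41% and 3.16% of all genes were called higher. The smallest p belonged to Gins4 (0.44, SE 0.12, edgeR adjusted p 0.0364) and Gins1 (1.03, SE 0.29, edgeR adjusted p 0.0437), subunits of the GINS complex that works with the MCM helicase. The other two called were Wdhd1 and Orc1, the latter a subunit of the origin recognition complex, named after their values were seen. Of the 50 further mitosis genes 49 were positive with a median of 0.73, 7 had an unadjusted p under 0.05 and none was called by edgeR or DESeq2. After Pbrm1 disruption in hSS1 all 50 were negative with a median of -0.93, and 33 had an unadjusted p under 0.05. The further replication genes had a median of -0.22 and 8 at that p, where 9.34% of all genes were lower at it. edgeR called none of either (0.00562% of all genes). DESeq2 called 9 of the 50 and 5 of the 46, all lower, where it called 3.89% of all genes lower. In the comparison between backgrounds edgeR called 1 of 46 further replication genes (DESeq2 2) and no further mitosis gene (DESeq2 1). That is 2.17% of the list, not above the 2.86% called among all genes. It called Rpa3, a subunit of the single-strand DNA binding complex RPA (-1.42, SE 0.30, edgeR adjusted p 0.0103), which had -0.97 in hSS1 and 0.44 in hSS2, neither past the test there. Dut, the enzyme that keeps uracil out of DNA, had the next smallest p (-1.12, SE 0.37, edgeR adjusted p 0.0829). After Pbrm1 and after Arid1b disruption in hSS2, edgeR and DESeq2 called none of these further genes. The lists came from textbook roles but were chosen with earlier results of these data known. They also hold genes regulated with the members, so they are not an independent measurement.

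Motif classes of the promoters largely restate the division into replication and mitotic genes, and the values by class are given as a description. Members with a CHR-type and no E2F-type match (17 genes) had a median log2 fold change of -0.99 after Pbrm1 disruption in hSS1, with a range of -1.24 to -0.61. Members with an E2F-type and no CHR-type match (7 genes) had a median of -0.47 and a range of -1.01 to -0.15, so the ranges overlapped. The 6 members with both motifs had a median of -0.82 (-1.24 to -0.33) and the 6 with neither -0.49 (-1.13 to -0.06). For CHR-type alone and E2F-type alone, the medians after Arid1a disruption in hSS2 were 0.73 and 0.71, after Arid1b disruption 0.07 and 0.17, and after Pbrm1 disruption in hSS2 0.30 and 0.26. No test was made of these classes.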

How the data were processed

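RNA from fresh-frozen bulk tumours was depleted of ribosomal RNA, made into stranded libraries and sequenced from both ends by the authors. The deposited values are raw counts of reads per gene on mm10 (STAR 2.7.11 and featureCounts 1.6.3 per the submitters' processing notes). The annotation release, the strand setting and the rule for reads with several matches are not given in the sources used here. The hSS2 (37 libraries) and hSS1 (9 libraries) count tables were normalized separately. Libraries held 10137668 to 21294657 counts.

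Genes were filtered with filterByExpr, scaled by TMM and tested, two-sided, with edgeR 4.0.16 (robust quasi-likelihood fit, R 4.3.3), in 1 fit per background and 1 fit of 46 libraries for the interaction. P-values were adjusted by Benjamini-Hochberg over all genes tested, with a threshold of 0.05. Log2 CPM used a prior count of 2. Correlations used 100000 permutations. Alternatives were DESeq2 1.42.0, RLE scaling, no filter, a threshold of 0.01, the muscle marker level as a covariate, only the controls that share the floxed group's range of mouse numbers, and 76 fits that left out 1 library. Contrasts between control ranges, and the fit against controls of the same range less control replicate 9, were added after seeing the data. The edgeR fit was also run on simulated counts with known changes. These were drawn separately for each gene, so variation shared between members was not covered.

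The members and lists were chosen with earlier results of these data known. Genes named were Mki67 and Top2a, all members past the threshold (over 8, the 4 of each subset with the smallest p) and, where no member of a subset passed, the 2 with the smallest unadjusted p; of the further genes, the 2 with the smallest p where any passed. Further names are those of members described by role or level, or marked as chosen afterwards.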

Additional observations from a re-analysis of the deposited data

Results flagged for a closer look

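Of 95 checks of a gene or a mean in a group of 4 to 10 tumours, 2 had 1 tumour far from the others, and chance alone marks about 1 in 20 groups. E2f2 in hSS2 Arid1b-fl replicate 5 stood at 6.874 log2 CPM, where the other 7 tumours lay between 3.407 and 4.464. The same library held 47460 CPM of summed erythroid markers, where the other 7 had 25.2 to 78.5 CPM, and was highest of its group in summed endothelial (984 CPM) and macrophage markers (925 CPM). The part of these cells in its E2f2 level was not tested. Mcm4 in hSS1 Pbrm1-fl replicate 3 stood at 6.389 log2 CPM, below the other 3 tumours at 7.15 to 7.252. That tumour had the lowest Pbrm1 (102 CPM) and the highest mitotic mean (6.04) of its group.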

How the results depend on the processing

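The 2 members called after Arid1a disruption in hSS2 became 0 at an adjusted p of 0.01, 5 with DESeq2, 1 without the filter on low counts, 1 with the muscle covariate, 4 against controls that share the range of mouse numbers, 6 against the same controls less replicate 9 and 0 to 6 when 1 library was left out. The 0 members called after Pbrm1 disruption in hSS1 became 9 with DESeq2. The 1 member called between Arid1a-fl and Pbrm1-fl became 0 at an adjusted p of 0.01, 0 against controls that share the range, whether replicate 9 was kept or not, and 0 to 2 when 1 library was left out. The other counts of called members stayed at 0. The cause was not tested. After Arid1b disruption log2 fold changes near 0 turned sign: Bub1 to -0.0273 and Top2a to -0.0314 against the same range, and Top2a to -0.0935 with the muscle covariate. With 1 library left out, Bub1 ran from -0.11 to 0.45, Mki67 from -0.41 to 0.0246, Top2a from -0.16 to 0.28 and Ube2c from -0.10 to 0.67 after Arid1b disruption, and Mki67 from -0.30 to 0.16 after Pbrm1 disruption in hSS2. Over all genes, calls after Arid1a disruption went from 637 to 1740 with DESeq2, and after Pbrm1 disruption in hSS1 from 1 to 1244. No paired analysis was possible because the labels give neither litters nor replicate numbers shared between groups. Each floxed group in hSS2 lies in a single range of mouse numbers, so the fit against controls of its range is also the fit with range as a block.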
